A study of Mus musculus with 19 samples.

Results

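The genes of 9 secreted proteins that act on blood vessels were followed in NIH3T3, a fibroblast line established from mouse embryos, while fibroblast growth factor (FGF) brought the cells out of quiescence. They were Vegfa, Vegfb, Vegfc, Vegfd (called Figf in older annotations), Pgf, Angpt1, Angpt2, Angptl4 and Edn1. The 9 were chosen by gene symbol, and all were on the array, with 17 of its 45101 probe sets, the sets of short probes that each give 1 signal. Signal is a linear brightness, and a probe set entered the tests where it exceeded the 40th percentile of its array on at least 2 arrays. For 8 of the 9 genes at least 1 probe set did so (13 of the 17 probe sets), and these 8 were part of 14996 genes tested. Vegfc was not: its 3 probe sets had a median of 2.9, 7.3 and 11.5 over the 19 arrays and none exceeded 38.8, against a 40th percentile of 45.2 over all values.

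Cells were held in 0.1% serum for 48 h, and these quiescent cultures gave 3 arrays, 1a and 1b of experiment 1 and 2 of experiment 2. Basic FGF at 50 ng/ml was then given for 1 h (1 array) or for 4, 7 or 12 h (2 arrays each, 1 per experiment). The same series was run with 20 µM U0126, a small molecule that blocks MEK, the kinase that activates ERK, added 0.5 h before FGF (1 array at 1 h and 2 at each later time). In 2 further cultures with 1 array each, U0126 was added 1 h after FGF and RNA taken at 7 h, or added at 7 h and RNA taken at 12 h. All cells were of this 1 line and had been starved. None of the 19 arrays held starved cells kept without FGF to the later times, or cells given U0126 without FGF, so FGF cannot be told apart from time and handling. Nor can a change of the FGF response by U0126 be told apart from an action of U0126 on starved cells without FGF. The labels do not say whether arrays of 1 group came from separate cultures, and p-values then measure only the spread between these samples.

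Vegfa, Vegfb and placental growth factor (Pgf) bind the receptor Flt1, Vegfa also binds Kdr, and Vegfc and Vegfd act through Flt4, with the neuropilins as co-receptors. Angpt1 activates the endothelial receptor Tek and stabilises vessels, whereas Angpt2 binds the same receptor and can oppose it. Angptl4 is a secreted inhibitor of lipoprotein lipase that is induced by fasting, PPAR factors and low oxygen. Edn1 is the precursor of endothelin-1, a peptide that constricts vessels and is cut to its active form by endothelin-converting enzymes. Fibroblasts make several of these ligands for the vessels around them, and the receptors Flt1, Kdr, Flt4 and Tek sit mainly on endothelium. The co-receptors Nrp1 and Nrp2 were above the 40th percentile on all 19 arrays of these fibroblasts.

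The identity of the cells and the action of the inhibitor were checked on the same arrays. Of 10 fibroblast markers, 9 were above the 40th percentile on all 19 arrays, with a summed signal of 90420 to 163507. Of 12 endothelial markers, only Flt1 was above it on every array, Tie1 and Erg were above it on none, and the summed signal was 401 to 775. Others lay between, such as Kdr on 12 arrays, Esam on 10 and Cdh5 on 9. Of 6 macrophage markers, Csf1r and Lyz2 were above it on all 19 arrays and Ptprc on none. Of 6 epithelial markers, Epcam was above it on all 19. The summed signals of these panels were 469 to 844 and 339 to 831. Of 13 textbook ERK target genes, 10 fell and 0 rose in the average over 4, 7 and 12 h with U0126 (Dusp6, a phosphatase of ERK, fell by 2.42 on the log2 scale). Samples of the same experiment number deviated together (correlation 0.124 to 0.304 over 21 pairs of groups) and were taken as paired. The tests given first ignore this pairing, and the value with the experiment as a block is added where it changes a call.

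Before the values, 3 promoters are shown, those of the genes whose signal moved most clearly at 1 h (Vegfa) or that fell under FGF (Vegfd and Edn1). They are the 250 bases before the gene's start from RefSeq on the mouse build GRCm38.p6, written 5′ to 3′ on the gene's strand. Windows were given for 6 of the 9 genes (Vegfa, Vegfb, Vegfc, Vegfd, Pgf and Edn1). Capitals mark matches to 7 motifs searched on both strands, some of which can overlap (the E-box holds the hypoxia core, and an EGR match can overlap a GC box). Among 32851 promoter windows of this length, 6.75% held the AP-1 motif TGANTCA, 32.7% the GC box GGGCGG, 16.6% the hypoxia core ACGTG and 3.17% the forkhead motif TGTTTAC. The EGR motif GCGNGGGCG was in 4.7%, the GATA motif AGATAA in 9.99% and the E-box CACGTG in 6.02%.
Vegfa promoter, chr17:46032378-46032627, minus strand: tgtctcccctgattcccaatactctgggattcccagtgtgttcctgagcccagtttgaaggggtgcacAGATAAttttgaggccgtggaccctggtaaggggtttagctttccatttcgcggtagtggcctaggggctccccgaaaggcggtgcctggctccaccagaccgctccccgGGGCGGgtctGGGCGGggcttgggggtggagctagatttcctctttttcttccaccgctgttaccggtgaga
Vegfd promoter, chrX:164373272-164373521, plus strand: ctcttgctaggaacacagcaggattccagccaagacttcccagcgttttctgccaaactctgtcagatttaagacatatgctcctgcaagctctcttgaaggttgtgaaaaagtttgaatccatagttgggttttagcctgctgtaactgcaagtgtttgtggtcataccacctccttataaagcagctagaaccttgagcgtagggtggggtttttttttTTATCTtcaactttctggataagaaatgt
Edn1 promoter, chr13:42301226-42301475, plus strand: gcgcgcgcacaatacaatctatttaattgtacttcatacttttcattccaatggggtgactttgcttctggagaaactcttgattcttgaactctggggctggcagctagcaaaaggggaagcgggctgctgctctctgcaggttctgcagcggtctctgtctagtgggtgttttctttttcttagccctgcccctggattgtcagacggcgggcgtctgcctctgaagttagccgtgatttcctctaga
The Vegfa window shown, the first of 2 given for the gene, held a GC box at each of -72 and -62 from the start and a GATA motif at -182. The second (chr17:46025164-46025413, minus strand, not printed) held the hypoxia core on the opposite strand at -211 and a GC box at -158, counted from its own end. By its coordinates on the minus strand it lies downstream of the first window. Its matches are thus not upstream of the start that the first window precedes. The Vegfd window held a GATA motif on the opposite strand at -29, and the Edn1 window held none of the 7. Their GC content was 59.2%, 42.4% and 50.4%, against a median of 52.4% over all windows. Such matches describe letters in a window and not a bound site.

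The 8 measured ligands did not move together. Vegfa was called higher at 1 h of FGF, on 1 array and not in every alternative tried. Pgf, near background, was called higher at 4 h, while Vegfd, Angpt1 and Edn1 were lower from 4 h on and Angptl4 at 7 and 12 h. Averaged over 4, 7 and 12 h, U0126 given before FGF left Vegfa, Edn1, Vegfd and Vegfb higher than FGF alone, and Angpt1 and Angptl4 lower. Not every time was called: Vegfa was called at all 3, Edn1 at 4 and 12 h, Vegfd at 4 h, Angpt1 at 7 and 12 h, Angptl4 at 4 and 7 h and Vegfb at none, and at 1 h 0 of the 8 were, against 0.18% of all genes. Angpt2 was not called in any comparison. Differences below are in log2(signal + 13.6), which understates changes of weak genes, with the standard error of the limma fit. A difference is called where the p-value, adjusted by Benjamini-Hochberg over all 14996 genes, is under 0.05. In cultures measured in bulk, fewer cells that make a transcript and less transcript per cell cannot be told apart.

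**Figure D1:**
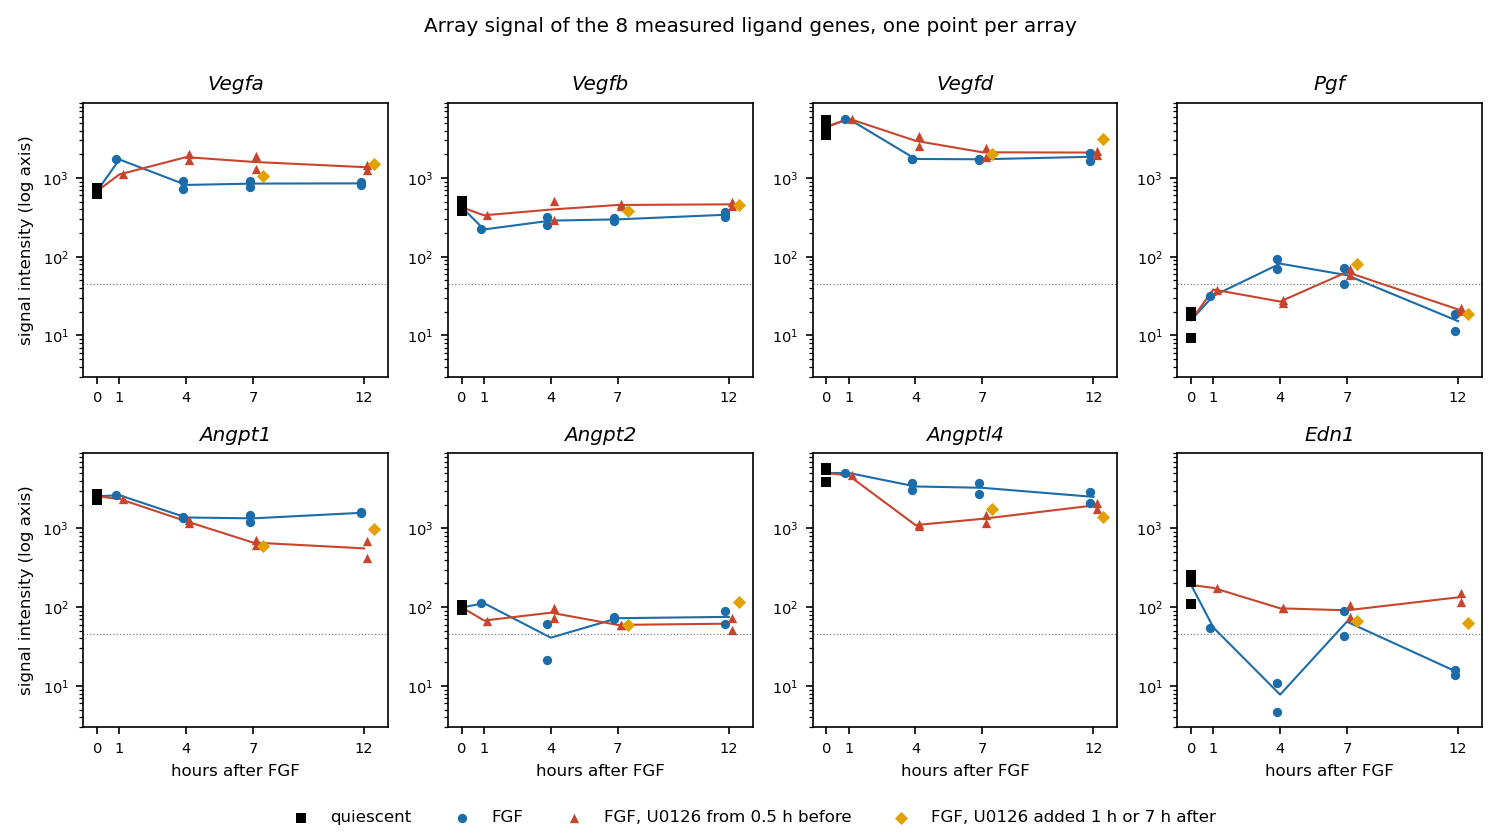
Signal intensity on a log axis against hours after FGF for the 8 measured genes, with 1 point per array. Lines join the means of the arrays (FGF alone in blue, U0126 from 0.5 h before FGF in red, both starting at the mean of the 3 quiescent arrays), yellow diamonds are single cultures given U0126 later, and the dotted line is the 40th percentile of all values, 45.2. Vegfa peaks at 1 h with FGF alone and at 4 h with U0126, and Edn1 with FGF alone drops under the dotted line at 4 and 12 h.

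Vegfa, the main growth factor for endothelial cells, had a signal of 754, 674 and 623 on quiescent arrays 1a, 1b and 2. It was 1717 after 1 h of FGF, 907 and 723 at 4 h, 928 and 768 at 7 h, and 900 and 808 at 12 h (experiments 1 and 2). The single 1 h array stood above all 9 other arrays of quiescent or FGF-treated cells, and the 4 h arrays overlapped the quiescent ones. On the second Vegfa probe set the 4 h arrays (432.8 and 470.5) stood above the quiescent ones (221.2 to 342.1), as did those at 7 and 12 h. The 1 h rise was 1.35 ± 0.24 (adjusted p = 0.0139), with the 1 array assumed to vary like the other groups. From 1 h to 4 h the signal fell by 1.07 ± 0.24 (adjusted p = 0.0189). At 4, 7 and 12 h the difference from quiescent cells was 0.28, 0.34 and 0.35, and none was called (adjusted p = 0.466, 0.323 and 0.243). The 1 h call was lost without the variance trend (adjusted p = 0.106) and without quiescent replicate 2 (1.25, adjusted p = 0.127). The fall to 4 h was lost without the variance trend (0.0736), with only the compared groups (0.0636) and without replicate 2 at 4 h (0.107).

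With U0126 present from before FGF, Vegfa took another course. Its signal was 1108 at 1 h, 1994 and 1684 at 4 h, 1301 and 1899 at 7 h, and 1277 and 1467 at 12 h. At 4, 7 and 12 h both U0126 arrays stood above both FGF arrays of that time, and at 1 h the U0126 array stood below the FGF array. The differences from FGF alone were 1.16 ± 0.19 at 4 h (adjusted p = 0.00166), 0.89 ± 0.19 at 7 h (0.0113) and 0.67 ± 0.19 at 12 h (0.0326), with an average of 0.91 ± 0.11 (2.75e-05). At 1 h it was -0.63 ± 0.27, which was not called (adjusted p = 0.662). The contrast of the later average with the 1 h value was 1.53 ± 0.29 (adjusted p = 0.0166). It was added after these values were seen and rests on 1 array of each kind at 1 h, so its p is no independent evidence. The call was lost without the variance trend (0.0899). Against quiescent cells, Vegfa with FGF and U0126 was higher by 1.44, 1.22 and 1.02 at 4, 7 and 12 h (± 0.19 each, adjusted p = 0.000335, 0.000962 and 0.00491).

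Of the differences of Vegfa from FGF alone, that at 4 h and the average kept their call in every alternative tried. The 7 h difference lost its call without the variance trend (adjusted p = 0.0632), with only the compared groups (0.0527), without FGF replicate 2 (0.75, 0.109) and without U0126 replicate 2 (0.62, 0.159). The 12 h difference lost it when any of its 4 arrays was left out (0.58 to 0.77, adjusted p = 0.07 to 0.208) and without the variance trend (0.0943). For the rise over quiescent cells with U0126 at 12 h the same held without quiescent replicate 2 (0.0709) and without U0126 replicate 2 at 12 h (0.0583). The second Vegfa probe set was called at 1 h of FGF (1.51), at 4 h and 7 h of U0126 (1.35 and 0.71), but not at 12 h of U0126, where it gave 0.32 as the representative of the gene (adjusted p = 0.416). Its difference at 12 h of FGF was called, at 0.73.

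U0126 added after FGF was tried once at each time. Added at 1 h, it left Vegfa at 1044.5 at 7 h, 0.30 ± 0.24 above FGF alone (adjusted p = 0.622). This 1044.5 stood above both FGF arrays of 7 h. On the second Vegfa probe set the same array read 679.5, against 359.8 and 480.6 with FGF alone. Early U0126 gave 647.7 and 731.4 there. Added at 7 h, U0126 left Vegfa at 1524 at 12 h, above both FGF arrays and both arrays with early U0126. That difference from FGF alone was 0.83 ± 0.24 and missed the threshold (adjusted p = 0.0585); with the experiment as a block it was 0.80 (adjusted p = 0.0203). Late and early U0126 differed by -0.58 ± 0.24 at 7 h and by 0.15 ± 0.24 at 12 h, and neither difference was called (adjusted p = 0.999 and 0.921).

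Vegfb, a VEGF relative linked to fatty acid handling, moved little. Its quiescent signals were 379, 505 and 386. With FGF they were 222 at 1 h, 323 and 252 at 4 h, 286 and 309 at 7 h, and 365 and 319.6 at 12 h, so every FGF array was below every quiescent array. None of these differences (-0.85, -0.51, -0.45 and -0.26) was called (adjusted p = 0.356, 0.226, 0.269 and 0.52). With U0126 the signals were 335.5 at 1 h, 502 and 291.5 at 4 h, 461 and 446 at 7 h, and 489.7 and 435 at 12 h. They were above FGF alone without overlap at 7 and 12 h and overlapped it at 4 h. Averaged over the 3 times Vegfb was 0.47 ± 0.14 higher with U0126 (adjusted p = 0.0203), although no single time was called. The average lost its call without FGF replicate 2 at 4 h (0.0653), U0126 replicate 1 at 4 h (0.0648), FGF replicate 2 at 12 h (0.0573) or U0126 replicate 1 at 12 h (0.0556).

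Vegfd, best known as a growth factor of lymphatic vessels, had 3 probe sets that moved alike with FGF from 4 h on. On the probe set of highest mean, the quiescent signals were 5502, 4255 and 3553. FGF gave 5612 at 1 h, 1750.4 and 1734 at 4 h, 1702 and 1749.8 at 7 h, and 1649 and 2072 at 12 h. The 6 arrays from 4 h on lay below all quiescent arrays, and the 1 h array above them. The differences from quiescent cells at 4, 7 and 12 h were -1.24 ± 0.18, -1.26 ± 0.18 and -1.16 ± 0.18 (adjusted p = 0.000737, 0.000463 and 0.000413). All 3 calls held in every alternative tried. The 1 h difference of 0.44 ± 0.23 was not called (adjusted p = 0.572), and from 1 h to 4 h Vegfd fell by 1.68 (SE 0.23, adjusted p = 0.00105). Tested as separate probe sets, all 3 were called at 4, 7 and 12 h of FGF.

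With U0126 the 4 h level of Vegfd was higher than with FGF alone. The signals with early U0126 were 5665 at 1 h, 3364 and 2565 at 4 h, 2396 and 1840.5 at 7 h, and 1977 and 2226 at 12 h. At 4 and 7 h they were above FGF alone without overlap, and at 12 h they overlapped it. The difference from FGF alone was 0.75 ± 0.18 at 4 h (adjusted p = 0.0248), 0.28 at 7 h (0.503) and 0.18 at 12 h (0.652), with an average of 0.40 ± 0.11 (0.0124). Whether it differed between the 3 times was tested with limma's F test and not called (adjusted p = 0.72). The 4 h call was lost without the variance trend (0.107), without FGF replicate 1 (0.113) or 2 (0.13) and without U0126 replicate 1 (0.55, 0.227), and the average was lost without the variance trend (0.054). Against quiescent cells, FGF with U0126 left Vegfd lower by 0.98 at 7 h and by 0.98 at 12 h, as differences of -0.98 ± 0.18 each (adjusted p = 0.00375 and 0.005). At 4 h it was -0.50 (adjusted p = 0.14, and 0.0427 with the experiment as a block). The 12 h value lost its call without the variance trend (0.0505) and without U0126 replicate 1 at 12 h (0.064). Added at 7 h, U0126 left a signal of 3133 at 12 h, above all FGF arrays and all early U0126 arrays of that time, a difference from FGF alone of 0.76 ± 0.23 (adjusted p = 0.0712, and 0.71 with 0.0269 with the block). The dimmest Vegfd probe set moved less with U0126. Its mean signals with early U0126 and with FGF alone were 1240 and 927 at 4 h. At 12 h they were 931 and 954, the opposite order to the set used, while the remaining set gave 1993 and 1839. With U0126 added at 7 h the dimmest set read 1164 at 12 h and the remaining set 3241.

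Pgf, which binds Flt1 alone among the VEGF receptors, was near background in this line, above the 40th percentile on 7 of 19 arrays. Its quiescent signals were 17.8, 19.8 and 9.4. FGF gave 31.9 at 1 h, 94.3 and 69.1 at 4 h, 45.6 and 71 at 7 h, and 11.5 and 18.9 at 12 h. All arrays at 1, 4 and 7 h were above all quiescent arrays, and those at 12 h overlapped them. The difference was 1.79 ± 0.44 at 4 h (adjusted p = 0.0184), 1.37 ± 0.44 at 7 h (0.0532, and 0.0374 with the experiment as a block) and 0.07 at 12 h (0.945). Because the quiescent signals were under the 40th percentile and Pgf entered the tests only through arrays at 4 and 7 h, the size is not a measured fold: at 4 h it was 1.10 to 2.51 over the alternatives. The 4 h call was lost without quiescent replicate 2 (1.54, adjusted p = 0.16) and without either 4 h array (1.60 and 0.132, 1.98 and 0.0683). With U0126 the signals were 38.3 at 1 h, 28 and 25.9 at 4 h, 69.1 and 58.6 at 7 h, and 20.4 and 22.4 at 12 h. At 4 h both U0126 arrays were below both FGF arrays, but the difference of -1.22 ± 0.44 was not called (adjusted p = 0.133; 0.0268 without the variance trend). At 7 h the groups overlapped (0.13 ± 0.44, adjusted p = 0.932), and at 12 h both U0126 arrays were just above both FGF arrays (0.29 ± 0.44, 0.788). Against quiescent cells FGF with U0126 was 1.50 ± 0.44 higher at 7 h (adjusted p = 0.0454). That call was lost with only the compared groups (0.0813), with each gene read from its most variable probe set (0.0727), without quiescent replicate 1b (0.0502) or 2 (0.298) and without either U0126 array (0.256 and 0.111), and with all probe sets tested (0.0501).

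**Figure D2:**
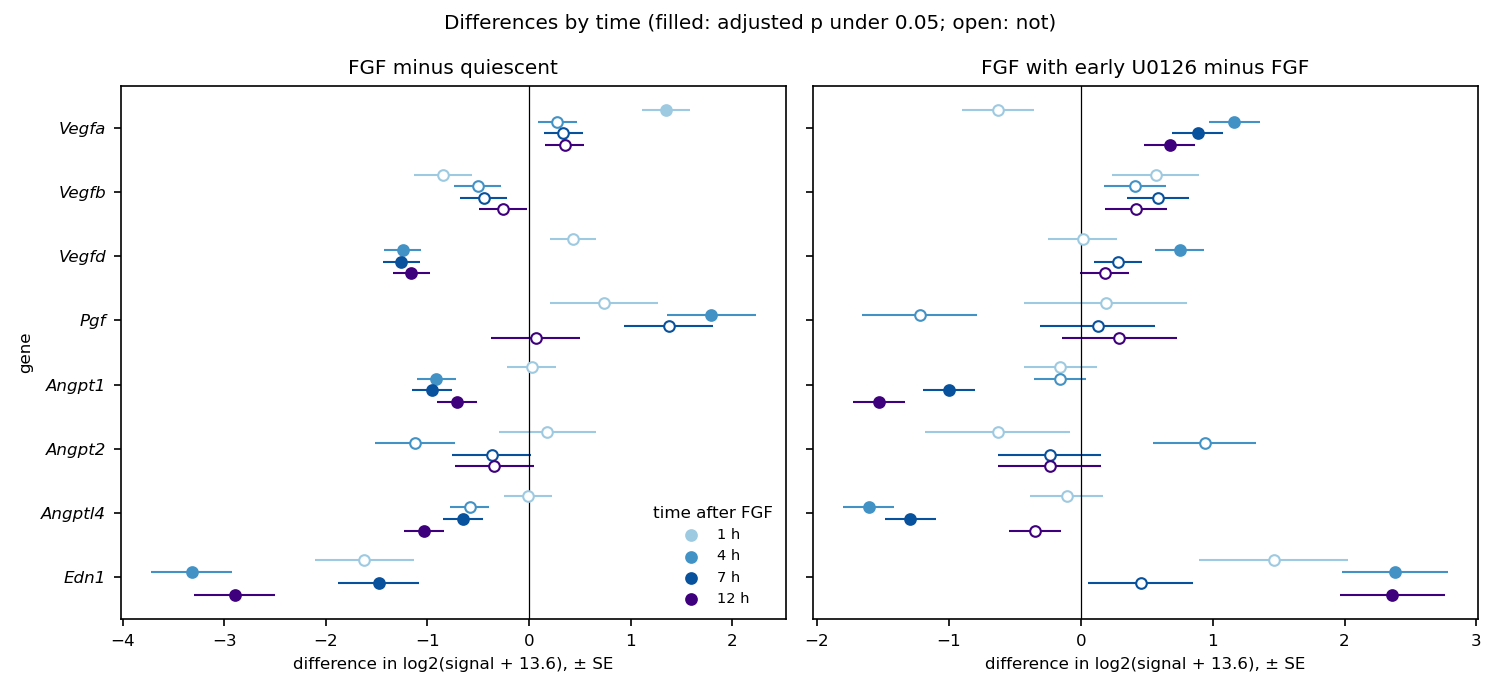
Differences in log2(signal + 13.6) with their standard errors for the 8 measured genes, FGF against quiescent cells on the left and U0126 from before FGF against FGF alone on the right, at 1, 4, 7 and 12 h. Filled points have an adjusted p under 0.05. With FGF 4 genes are called at each of 4, 7 and 12 h, Vegfd, Angpt1 and Edn1 at all 3 times. With U0126 Vegfa and Edn1 lie to the right at 4 and 12 h, and Angptl4 to the left at 4 and 7 h.

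Angpt1, the vessel-stabilising ligand, had quiescent signals of 2621, 2264 and 2770. FGF left it at 2642 at 1 h, 1367 and 1383 at 4 h, 1212 and 1469.5 at 7 h, and 1563 and 1604 at 12 h. From 4 h on all 6 arrays lay below all quiescent arrays. The differences were -0.91 at 4 h, -0.95 at 7 h and -0.71 at 12 h, each ± 0.20 (adjusted p = 0.00894, 0.00498 and 0.0182). At 1 h the difference was 0.02 (adjusted p = 0.981), and from 1 h to 4 h Angpt1 fell by 0.94 (SE 0.24, adjusted p = 0.0373). Without quiescent replicate 2 the 3 falls had adjusted p = 0.0907, 0.0589 and 0.137, at -0.82, -0.86 and -0.62. Leaving out either 4 h array (0.0534 and 0.0601), replicate 1 at 7 h (0.0555) or either 12 h array (0.093 and 0.0763) also ended the call of that time, and the 12 h call was lost without the variance trend (0.0626). The fall from 1 h to 4 h was lost without either 4 h array (0.109 and 0.119), without the variance trend (0.106), when only the compared groups were fitted (0.0531) and when each gene was read from its most variable probe set (0.0541).

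With U0126 Angpt1 was lower still at 7 and 12 h. Its signal was 2368 at 1 h, 1282 and 1182 at 4 h, 619.5 and 703 at 7 h, and 417 and 698.5 at 12 h. At 7 and 12 h the highest U0126 array was below the lowest FGF array, and at 4 h the groups were close but did not overlap either. Relative to FGF alone Angpt1 fell by 1.001 at 7 h (SE 0.20, adjusted p = 0.00571) and fell by 1.53 at 12 h (SE 0.20, 9.62e-05), while at 4 h the difference was -0.16 (adjusted p = 0.766). The average was -0.90 ± 0.11 (adjusted p = 3.85e-05). That the difference changed over 4, 7 and 12 h was just short of the threshold (F test, adjusted p = 0.0607) and passed it with the experiment as a block (0.00254). Against quiescent cells FGF with U0126 differed by -1.07, -1.95 and -2.24 (± 0.20 each, adjusted p = 0.00373, 2.87e-05 and 1.84e-05). The 7 h difference from FGF alone was lost without FGF replicate 2 (0.0656) or U0126 replicate 1 (0.0631), and the 4 h difference from quiescent cells without quiescent replicate 2 (0.051). The 12 h and average differences were called in every alternative tried.

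U0126 added at 1 h was also followed by lower Angpt1, on 1 array. It left 593 at 7 h, below every array with early U0126 at that time, and -1.15 ± 0.24 from FGF alone (adjusted p = 0.0133). This call was lost without the variance trend (0.0802) and without FGF replicate 2 at 7 h (0.0885). Added at 7 h, U0126 left 970.3 at 12 h, between FGF alone and early U0126. That array was -0.70 ± 0.24 from FGF alone, which was not called (adjusted p = 0.124, and 0.0527 with the block), and 0.83 ± 0.24 above early U0126 (adjusted p = 0.196; 0.92 and 0.015 with the experiment as a block, and 1.19 and 0.0319 without early U0126 replicate 2). The second Angpt1 probe set ran lower, at 841, 817 and 949 in quiescent cells and 215 and 335 after 12 h with U0126. It was called for the fall at 7 h of FGF (-0.75), the 12 h U0126 difference (-1.13) and the average (-0.57), but not at 4 h or 12 h of FGF or 7 h of U0126.

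Angpt2, the context-dependent partner of Angpt1, was above the 40th percentile on 18 of 19 arrays. Its signals were 97.1, 107.8 and 92.8 in quiescent cells, 112.1 after 1 h of FGF, 21.6 and 60.3 at 4 h, 74.2 and 70.6 at 7 h, and 89.5 and 61 at 12 h. From 4 h on all FGF arrays were below all quiescent arrays. The difference at 4 h was -1.12 ± 0.39 (adjusted p = 0.0931, and 0.0491 with the experiment as a block; 0.0444 with the 3 quiescent arrays kept separate and 0.0486 without replicate 2 at 4 h). With U0126 the signals were 67.6 at 1 h, 72.2 and 97.8 at 4 h, 59 and 60 at 7 h, and 51.1 and 72.3 at 12 h. They were above FGF alone at 4 h without overlap (0.94 ± 0.39, adjusted p = 0.206) and below it at 7 h without overlap (-0.23 ± 0.39, adjusted p = 0.836). The other Angpt2 probe set never exceeded 38.9.

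**Figure D3:**
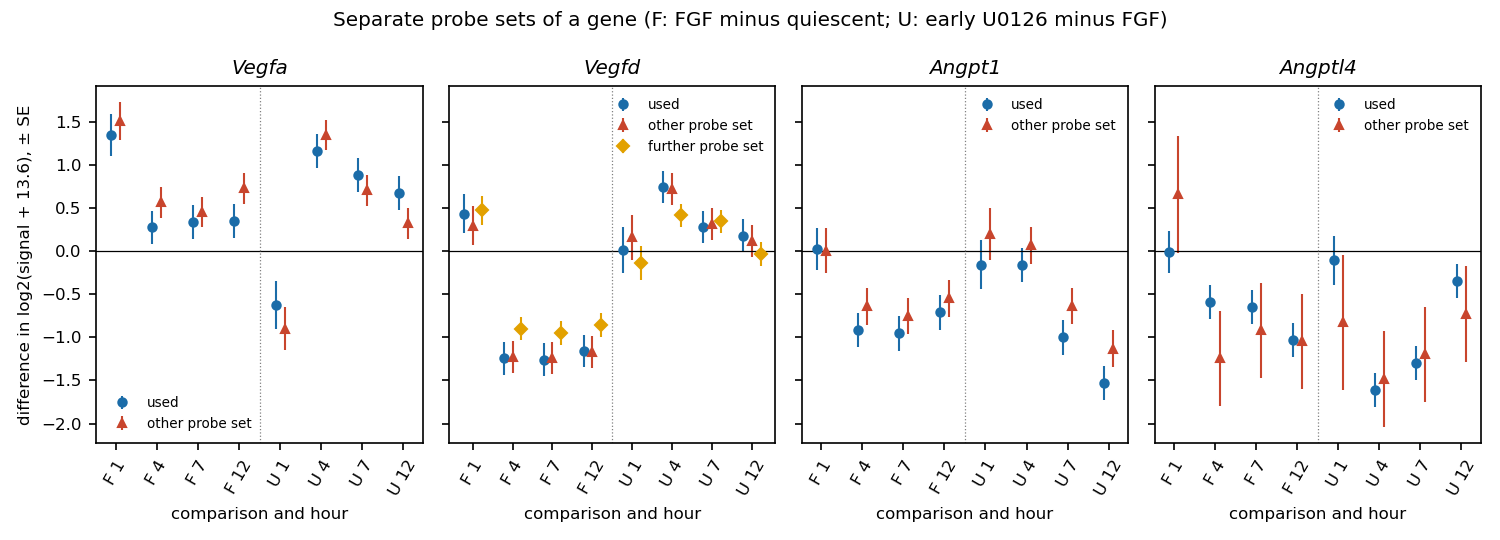
Differences in log2(signal + 13.6) with standard errors for each probe set of Vegfa, Vegfd, Angpt1 and Angptl4 that passed the filter, for FGF against quiescent cells (F) and U0126 against FGF alone (U) at 1, 4, 7 and 12 h. Circles are the probe set used for the gene. Probe sets of a gene lie on the same side of 0 from 4 h on, apart from U0126 at 4 h for Angpt1 and at 12 h for Vegfd, and the second Angptl4 probe set has the widest error bars.

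Angptl4, the lipase inhibitor, had quiescent signals of 5855, 3843 and 5452. FGF gave 5058 at 1 h, 3051 and 3761 at 4 h, 3802 and 2750.5 at 7 h, and 2113 and 2911.5 at 12 h. From 4 h on every array was below every quiescent array, at 4 and 7 h by a narrow margin from array 1b. The differences were -0.01 at 1 h (adjusted p = 0.994), -0.58 at 4 h (0.0793, and 0.0259 with the experiment as a block), -0.65 at 7 h (0.0399) and -1.03 ± 0.19 at 12 h (0.00152). The 7 h call depended on the setting: it was lost with scaling to the 75th percentile (0.0855), without the filter (0.0509), without the variance trend (0.123), with only the compared groups (0.0699) and with all probe sets tested (0.0527). It was also lost without quiescent replicate 1a (0.146) or 2 (0.251) and without FGF replicate 2 at 7 h (-0.42, 0.279). Without quiescent replicate 1b the 4 h difference was called (-0.74, 0.0291).

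With U0126 Angptl4 was lower at 4 and 7 h. The signals were 4694 at 1 h, 1123 and 1079 at 4 h, 1479.7 and 1163 at 7 h, and 2118 and 1788 at 12 h. At 4 and 7 h both U0126 arrays were below both FGF arrays, and at 12 h the groups overlapped. The difference from FGF alone was -1.61 ± 0.19 at 4 h (adjusted p = 0.000121), -1.29 ± 0.19 at 7 h (0.000728) and -0.35 ± 0.19 at 12 h (0.315), with an average of -1.08 ± 0.11 (5.6e-06). The test of a change over these times gave adjusted p = 0.0772, and 0.011 with the experiment as a block. At 1 h it was -0.11 (adjusted p = 0.999), and the later average differed from that by -0.98 ± 0.30 (0.138, and 0.0362 with the block). Against quiescent cells FGF with U0126 differed by -2.19, -1.94 and -1.38 (± 0.19 each, adjusted p = 1.17e-05, 2.87e-05 and 0.000572). U0126 added at 1 h left 1748 at 7 h, -0.88 ± 0.24 from FGF alone (adjusted p = 0.0569; 0.0146 with the block), and added at 7 h left 1406 at 12 h, -0.81 ± 0.24 (0.067; 0.0189 with the block). Both were below all FGF arrays of their time.

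The second Angptl4 probe set was near the filter, with a median signal of 49.3. It moved the same way at 4, 7 and 12 h and was called for the average with U0126 (-1.14), but when it stood for the gene the calls at 7 and 12 h of FGF, at 4 and 7 h of U0126 and at 12 h of FGF with U0126 were lost (adjusted p = 0.123 to 0.455). At 1 h of FGF it gave 0.66, the opposite sign to the first probe set, with adjusted p = 0.782.

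Edn1, the endothelin-1 precursor, was above the 40th percentile on 14 of 19 arrays, with quiescent signals of 108.5, 206.9 and 258.3. FGF gave 55 at 1 h, 10.8 and 4.7 at 4 h, 42.6 and 88.2 at 7 h, and 13.8 and 15.8 at 12 h. All 7 FGF arrays lay below all quiescent arrays, and the 7 h arrays stood above those at 4 and 12 h without overlap. The differences from quiescent cells were -3.32 ± 0.40 at 4 h (adjusted p = 0.000163), -1.48 ± 0.40 at 7 h (0.0243) and -2.90 ± 0.40 at 12 h (0.000128). The FGF arrays at 4 and 12 h were under the 40th percentile, so these sizes rest on the offset: they were -4.59 to -2.21 at 4 h and -3.65 to -2.03 at 12 h over the alternatives. At 1 h the difference was -1.62 ± 0.49 (0.268). The return from 4 to 7 h, 1.84 ± 0.40, was not called (adjusted p = 0.121) but was with the experiment as a block (0.0207), and so was the second decline to 12 h, -1.41 ± 0.40 (0.111, and 0.0427 with the block). From 1 h to 4 h it was -1.70 ± 0.49 (0.0584; -1.80 and 0.0192 with the block). The 7 h call was lost with an offset of 1 (0.0545), with only the compared groups (0.0684), without quiescent replicate 1b (0.0805) or 2 (-1.12, 0.255) and without FGF replicate 1 at 7 h (-1.05, 0.209).

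With U0126 Edn1 was higher than with FGF alone at 4 and 12 h. The signals were 175.5 at 1 h, 96.8 and 96.4 at 4 h, 75.1 and 107.3 at 7 h, and 149.1 and 117.4 at 12 h. At 4 and 12 h both U0126 arrays were above both FGF arrays, at 7 h the groups overlapped, and the 1 h array was above the 1 h FGF array. The difference from FGF alone was 2.38 ± 0.40 at 4 h (adjusted p = 0.00181), 0.45 ± 0.40 at 7 h (0.647) and 2.36 ± 0.40 at 12 h (0.00096), with an average of 1.73 ± 0.23 (6.1e-05). The 4 h, 12 h and average calls held in every alternative tried, but the size moved with the setting: the 4 h difference was 1.42 to 3.57 and the average 1.10 to 2.40 over the alternatives. At 1 h it was 1.46 ± 0.56 (adjusted p = 0.567). The test of a change over 4, 7 and 12 h was not called (adjusted p = 0.196). Against quiescent cells, FGF with U0126 differed by -0.94, -1.03 and -0.53, none of which was called (adjusted p = 0.206, 0.134 and 0.553); without quiescent replicate 1a the 7 h value was (-1.24, 0.0498). Added at 1 h, U0126 left 67.2 at 7 h (0.10 ± 0.49 from FGF alone, adjusted p = 0.957). Added at 7 h, it left 62.8 at 12 h, above both FGF arrays and below both early U0126 arrays (1.43 ± 0.49 from FGF alone, adjusted p = 0.122; 1.53 and 0.0499 with the block).

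**Figure D4:**
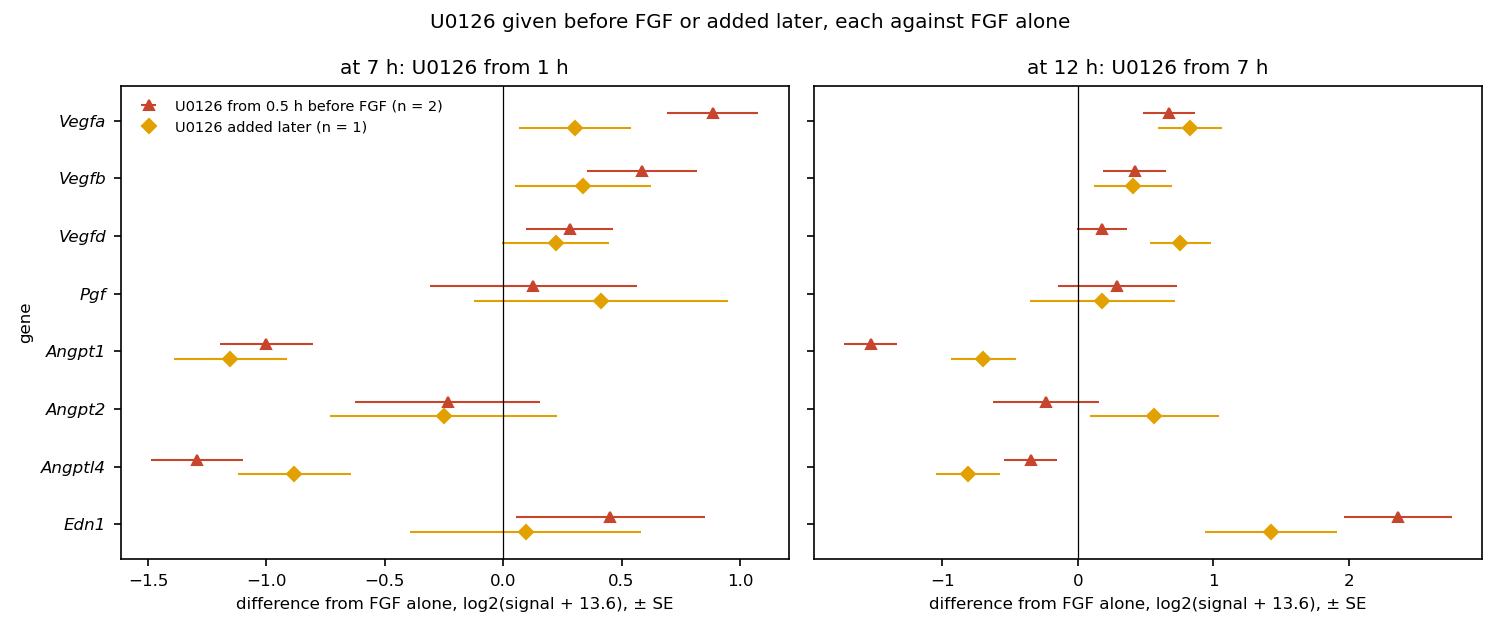
Difference from FGF alone in log2(signal + 13.6), with standard errors, for U0126 from 0.5 h before FGF (red triangles, 2 arrays) and U0126 added later (yellow diamonds, 1 array), at 7 h on the left and 12 h on the right. Angpt1 and Angptl4 lie to the left of 0 under both schedules at both times. Vegfa, on the probe set used for the gene, lies at 0.30 when U0126 was added at 1 h and at 0.83 when it was added at 7 h.

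The counts of called genes can be read against all 14996 genes. FGF at 1 h called 1 of the 8 ligands (Vegfa), against 0.48% of all genes, and 1 with the experiment as a block, against 1.57%. At 4 h it called 4 (Pgf up, Vegfd, Angpt1 and Edn1 down), against 8.91%, and 6 with the experiment as a block, against 17.7%. At 7 h it called 4, all lower, against 12.7%, and with the block 5, Pgf among them, against 21.7%. Pgf passed the filter only through arrays at 4 and 7 h, where it was high, so its calls lend these counts no support. The 12 h count was 4, all lower, against 20.3%, and the block gave 4, against 30%. From 1 h to 4 h 3 ligands fell, against 5.18% (4 with the block, against 14.3%). From 4 h to 7 h and from 7 h to 12 h 0 were called, against 0.12% and 1.82%, with 1 each with the block, against 1.89% and 4.72%; at an unadjusted p under 0.05 limma counted 1178 and 1630 of all genes. The comparisons with quiescent cells share those arrays, and those between times share FGF arrays.

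For U0126 against FGF alone, 0 of the 8 ligands were called at 1 h, against 0.18%, where 1027 of all genes had an unadjusted p under 0.05 in limma. At 4 h 4 were called (Vegfa, Vegfd and Edn1 higher, Angptl4 lower), against 5.94%. At 7 h 3 were called (Vegfa higher, Angpt1 and Angptl4 lower), against 6.09%, and at 12 h 3 (Vegfa and Edn1 higher, Angpt1 lower), against 12.1%. The average called 6, against 22%. With the block the counts stayed at 0 at 1 h, 4 at 4 h, 3 at 7 h, 3 at 12 h and 6 for the average. The shares of all genes were then 1.05%, 13%, 12.6%, 20.6% and 30.6%. The test of a change over the 3 times called 0, against 1.03% (1298 of all genes at an unadjusted p under 0.05), and 2 with the block, against 3.84%. The later average against 1 h called 1, against 1.68%, and 2 with the block, against 5.81%.

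FGF with U0126 against quiescent cells called 3 of the 8 at 4 h, against 7.39% (4 with the block, against 15%), 5 at 7 h, against 9.07%, and 4 at 12 h, against 5.42%. The counts at 7 and 12 h were the same with the block, against 18.6% and 14.4%. The 5 at 7 h include Pgf, which passed the filter only through arrays at 4 and 7 h. U0126 added at 1 h called 1 at 7 h, against 3.59% (2 with the block, against 7.51%). Added at 7 h it called 0 at 12 h, against 5.05% (4 with the block, against 11.3%), with 2692 of all genes at an unadjusted p under 0.05. Late against early U0126 called 0 ligands at 7 h, against 0% (440 of all genes at an unadjusted p under 0.05 in limma), and 0 at 12 h, against 0.674% (1359 at an unadjusted p under 0.05; 1 with the block, against 2.23%).

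Ranking the 11 group means of each gene shows how finely its levels can be told apart. Of the 10 steps between neighbours in that order, 5 exceeded the residual SD for Angptl4 (0.23) and 5 for Edn1 (0.35). For Vegfa (0.21), Vegfd (0.21) and Angpt1 (0.22) 3 did, for Pgf (0.25) 2, and for Vegfb (0.24) and Angpt2 (0.35) 1. Vegfa was highest with U0126 at 4 h and lowest in quiescent cells, with no step over the SD among its first 5 groups, which were FGF at 1 h and early U0126 at 4, 7 and 12 h and U0126 from 7 h at 12 h. Vegfd was highest at 1 h with or without U0126 and lowest with FGF alone at 7 h, its last 6 groups not differing beyond the SD from their neighbours. Angpt1 was highest at 1 h of FGF, in quiescent cells and at 1 h with U0126, with no step over the SD between them, and lowest with U0126 at 12 h. Angptl4 was highest in quiescent cells and lowest with U0126 at 4 h, and Edn1 was highest in quiescent cells and lowest with FGF at 4 h. Pgf was highest with FGF at 4 h and lowest in quiescent cells. Vegfb was highest with early U0126 at 12 h and lowest at 1 h of FGF, and Angpt2 was highest with late U0126 at 12 h and lowest at 4 h of FGF.

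Genes whose 11 group means ran most like those of a ligand were named among 6155 candidates whose means spanned at least 1 log2 unit. These correlations describe the same arrays and share their treatments, so they carry no test. For Vegfa they were Tpcn2 (Pearson r = 0.93), Nr4a3 (0.88) and Spata24 (0.87), and for Vegfb Tia1 (0.93), Bend6 (0.91) and Ttc32 (0.91). Those of Vegfd were Ldb2 (0.98), Aff3 (0.98) and Gulp1 (0.97), and those of Pgf Myzap (0.84), Cry1 (0.81) and Cdv3 (0.78). Angpt1 ran with Casp12 (0.95), H2az2 (0.94) and Tspan4 (0.94), Angptl4 with Ptpn3 (0.98), Synpo (0.97) and Medag (0.95), and Edn1 with Top3b (0.93), Zfp512 (0.91) and Ift81 (0.91).

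The receptors and processing enzymes of the ligands were read from the same fit. Of all genes 20.3% were called after 12 h of FGF and 22% in the U0126 average (30% and 30.6% with the block), and the counts of each list below stand against these shares. Of the 5 VEGF receptors and co-receptors, 1 was called in the average over U0126 times: Nrp1, a neuropilin that binds Vegfa, differed by -0.55 ± 0.08 (adjusted p = 0.000231); with the block 1 more was higher. After 12 h of FGF 0 of the 5 were called, 1 lower with the block, and the median difference was -0.59, against -0.02 over all genes. Nrp2 was at -0.59 and Flt1 at -0.60 (adjusted p = 0.0805 and 0.162). The class 3 semaphorins compete for the neuropilins and signal through plexins: of 7 semaphorins and plexins measured, 5 fell and 1 rose after 12 h of FGF (median -1.05). Plxna2 fell by 1.84, Sema3f by 1.19 and Sema3c by 1.05 (adjusted p = 0.000677, 0.000339 and 0.000321), and Sema3a rose by 0.49 (0.0463). The other falls were Plxna1 at -0.66 and Plxnd1 at -0.76 (adjusted p = 0.0394 and 0.0455). With U0126 Sema3a was at -0.81 and Sema3c at 0.49 (adjusted p = 1.8e-05 and 0.00136), 1 lower and 1 higher of 7, and the block called 2 each way. The Sema3a rise was lost without the variance trend, with only the compared groups, without quiescent replicate 1a or 2 and without either 12 h array (adjusted p up to 0.278), and its fall with U0126 with its probe set of highest variance (0.058).

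Of the angiopoietin receptors only Tek was tested, with a signal never above 90.8, and was not called after 12 h of FGF (-0.78, adjusted p = 0.427) or in the U0126 average (-0.35, 0.556). Angptl6, a relative of Angptl4, moved the other way from it with U0126, 2.22 ± 0.12 higher (adjusted p = 1.2e-08), and was 1 of 4 measured relatives called. After 12 h of FGF it differed by -0.91 (adjusted p = 0.00651), a call lost without quiescent replicate 2 or without replicate 1 at 12 h (adjusted p up to 0.0917). Among 5 measured endothelin receptors, converting enzymes and other endothelins, only Ece2, a converting enzyme, was called: 0.95 ± 0.18 after 12 h of FGF (adjusted p = 0.00187) and -0.50 ± 0.11 with U0126 (0.00318). Ece1 was at -0.29 in both comparisons (adjusted p = 0.527 and 0.215).

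Of 7 convertases and proteases that process or free such ligands, 2 were higher and 2 lower with U0126. Mmp14, a membrane-bound matrix protease, was 1.64 ± 0.08 higher (adjusted p = 5.5e-09) and Adamts1, which can sequester Vegfa, 0.93 ± 0.10 higher (1.09e-05). Both had fallen after 12 h of FGF, by 1.21 and 1.85 (adjusted p = 4.35e-05 and 7e-06). Plat, tissue plasminogen activator, was at -0.92 with U0126 (adjusted p = 8.65e-05) and Furin, a convertase, at -0.32 (0.0494). With its other probe set Plat was at 0.16 (0.851), and the Furin call was lost in 15 of 23 alternatives.

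Other ligands and inhibitors that act on vessels did not share 1 direction. Of 14 measured, 3 were higher and 3 lower with U0126. Ccn2, a matrix-associated growth factor, fell by 1.63 (adjusted p = 2.81e-06) and Hbegf, an EGF receptor ligand, by 1.25 (6.22e-06). Fgf2, basic FGF itself, fell by 1.42 (adjusted p = 0.00246) but was near background. Its median signal was 27.6 and it was above the 40th percentile on only 5 arrays, so this size is not a measured fold. Thbs2, an inhibitor of angiogenesis, rose by 0.52 (0.0171), a call lost without the variance trend and in 6 of 12 fits that left out 1 array (adjusted p up to 0.0752), and Ccn1 and Pdgfa, a platelet-derived growth factor chain, were at 0.62 and 0.39 (0.0315 and 0.00298). After 12 h of FGF Hbegf was 2.62 higher (adjusted p = 2.85e-06) and Thbs2 1.40 lower, as a difference of -1.40 (0.00102), among 2 higher (Pdgfa at 0.44, 0.0404) and 1 lower of 14.

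**Figure D5:**
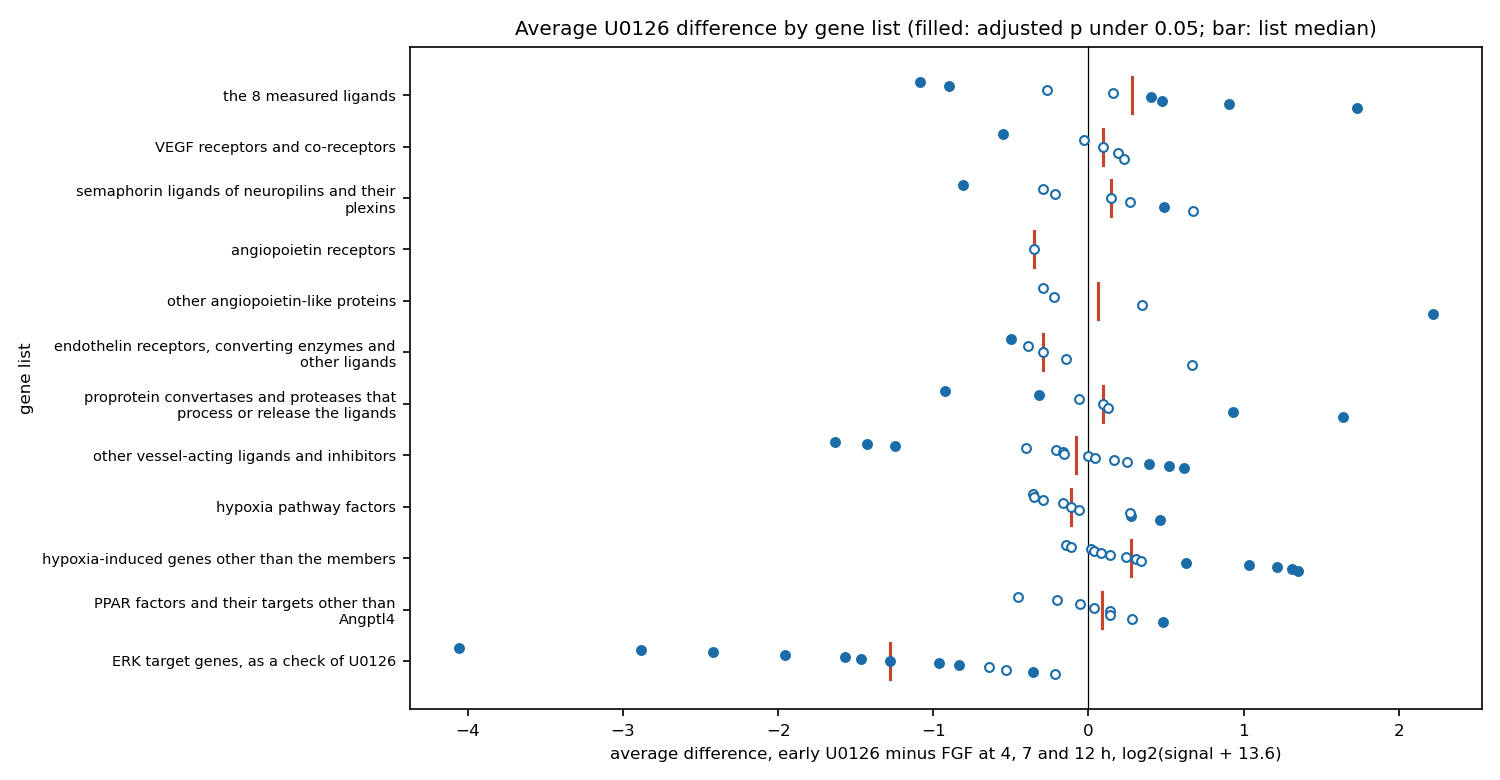
Average difference between U0126 from before FGF and FGF alone over 4, 7 and 12 h, in log2(signal + 13.6), with 1 point per gene, for the 8 measured ligands and 11 gene lists. Filled points have an adjusted p under 0.05 and the red bar is the median of a list. The ERK target genes lie to the left of 0 with a median of -1.28, and the ligands lie on both sides.

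Because low oxygen induces Vegfa and Angptl4, and PPAR factors induce Angptl4, the other genes of both programmes were counted. Oxygen and the activity of these factors were not measured, and whether either programme moved the ligands was not tested. Of 14 hypoxia-induced genes other than the ligands, 5 were higher and 0 lower with U0126 on average, against 22% of all genes called (8 higher with the block, against 30.6%), with a median of 0.28 against 0.01 over all genes. Ndrg1 was at 1.35, Ero1a, an oxidase of the endoplasmic reticulum, at 1.31, Ankrd37 at 1.21 and Ddit4, an inhibitor of mTOR signalling, at 1.04 (adjusted p = 4.02e-07, 2.85e-05, 0.0013 and 0.000579). The fifth was Bnip3 at 0.63 (adjusted p = 0.00821), and in the same comparison Vegfa was higher and Angptl4 lower. After 12 h of FGF 1 of the 14 was higher, Ldha at 0.52 (adjusted p = 0.0138), and 2 lower, Kdm3a at -0.80 (0.00286) and Ndrg1 at -1.30 (0.00018; 0.101 with its probe set of highest variance). With the block 2 were called each way. Of 9 factors of the hypoxia pathway, 2 were higher with U0126, a share near the 22% of all genes called: Hif1a, the oxygen-regulated subunit, at 0.46 (adjusted p = 0.000215; 0.664 with its probe set of highest variance) and Cited2, an inhibitor of it, at 0.28 (0.0256). With the block 3 were higher and 2 lower, against 30.6% of all genes. The Cited2 call was lost in 8 of 23 alternatives (adjusted p up to 0.0829). After 12 h of FGF Egln3, an oxygen-sensing hydroxylase, was at 0.86 (0.0168) and Arnt, the partner of Hif1a, at -0.68 (0.0365). Egln3 was lost without quiescent replicate 2 or FGF replicate 2 at 12 h (adjusted p up to 0.189), and Arnt in 6 of 16 alternatives, among them each of those (up to 0.334).

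Of 8 measured PPAR factors and targets, 5 fell and 0 rose after 12 h of FGF, with a median of -0.63 against -0.02 over all genes. Cpt1a, which admits fatty acids to mitochondria, was at -1.19 (adjusted p = 0.000116), Slc25a20, a carnitine carrier, at -1.05 (0.00845), Plin2, a coat protein of lipid droplets, at -0.77 (0.000348) and Acadl, a dehydrogenase of fatty acid oxidation, at -0.48 (0.0178). The fifth was Pdk4, a kinase that restrains glucose oxidation, at -0.78 (0.049). The calls of Cpt1a and Acadl were lost with their probe set of highest variance (adjusted p = 0.126 and 0.33), which for Acadl turned the sign to 1.13. Acadl also lost it without the variance trend and without quiescent replicate 2 or FGF replicate 2 at 12 h, and Slc25a20 without the latter (0.12). With U0126 Cpt1a, Slc25a20, Plin2 and Acadl were at -0.05 to 0.14 and none was called. Of the 8, 1 was higher, Pdk4 at 0.48 (adjusted p = 0.0348), and 0 lower. Whether PPAR factors had a part in the Angptl4 changes was not tested.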

How the data were processed

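RNA of 19 NIH3T3 samples was hybridised to Affymetrix mouse expression arrays, 1 array per sample. The deposited values are signal intensity on a linear scale, made by the authors with MAS5, per the submitters' processing notes (version not given in the sources used here). On every array the mean without the highest and lowest 2% was 500. Of 45101 probe sets, 34945 had 1 gene in the platform annotation, 932 several and 9160 none. An offset of 13.6 (20th percentile of the table) was added before log2. The highest-mean probe set stood for a gene. Quiescent arrays 1a and 1b share an experiment number and were averaged, giving 18 columns in 11 groups. A single linear model over the 11 groups was fitted in limma 3.58.1 (R 4.3.3, empirical Bayes with a variance trend, 7 residual and 7.48 prior degrees of freedom), with Benjamini-Hochberg adjustment. The fit was tested on simulated data. Samples of 1 experiment number deviated together in all 21 pairs of groups, so the experiment as a block is given where it changes a call. The number of arrays limits precision.

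The members, gene lists and tests were chosen with earlier results of these data known. Of each gene list, up to 4 genes of smallest p in the U0126 average and at 12 h of FGF are named; called genes beyond those were named after their values were seen. Genes most like a ligand are the 3 of highest correlation. Alternatives were other scalings, offsets, filters, probe sets, variance models and sample sets, and the experiment as a block. Protein sequences were not used here.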

Additional observations from a re-analysis of the deposited data

Results flagged for a closer look

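Vegfa differed from FGF alone in opposite directions at 1 h and later. The later average of its U0126 effect minus the 1 h value was 1.53 in log2(signal + 13.6), a contrast chosen after the values were seen, with 1 array of each kind at 1 h. Angptl4 was also called in this contrast with the experiment as a block (limma, adjusted p = 0.0362). Pgf was lower with U0126 in both experiments at 4 h (-1.22) and higher in both at 12 h (0.29). Angpt2 was higher in both at 4 h (0.94) and lower in both at 7 h (-0.23). For Pgf and Angpt2 limma's F test over the 3 times was not called (adjusted p = 0.594 and 0.672). No group held enough samples for a search for single samples far from the others.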

How the results depend on the processing

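Of 46 calls of single ligands, 21 held in every alternative tried, 25 were lost in 1 or more, and 0 changed direction. The replicate block (the experiment number) moved the number of ligands called to 1 from 4 to 7 h and from 7 to 12 h of FGF and for late against early U0126 at 12 h, to 2 for U0126 from 1 h, for the test by time and for the later average minus 1 h, and to 4 for U0126 from 7 h; it changed no call beyond those given beside the results. Without the variance trend the number was 0 at 1 h of FGF, for U0126 from 1 h and for the later average minus 1 h, and 1 from 1 to 4 h and from 7 to 12 h of FGF. With only the compared groups it was 2 at 7 h of FGF, 1 from 1 to 4 h, 2 for U0126 from 1 h and 4 for U0126 from 7 h. Quantile normalization gave 1 and 75th percentile scaling 1 for U0126 from 7 h, and the latter 1 for the test by time. Leaving out 1 array gave 0 to 1 at 1 h, 2 to 5 at 4 h, 1 to 3 at 7 h and 3 to 4 at 12 h of FGF, 1 to 2 from 1 to 4 h, 1 to 3 for U0126 at 7 h, and 0 to 1 for U0126 from 7 h, late against early U0126 at 12 h and the test by time.

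Signs turned only for values that were not called, apart from the list genes. Angptl4 at 1 h of FGF was 0.035 with 75th percentile scaling, 0.025 with 3 separate quiescent arrays, 0.66 with its probe set of highest variance, and -0.16 to 0.14 without 1 array. Pgf at 12 h of FGF was -0.057 with quantile normalization, -0.017 with 3 separate quiescent arrays and -0.18 to 0.25 without 1 array. Without 1 array, Angpt1 at 1 h of FGF ranged from -0.028 to 0.12, the Pgf U0126 effect at 7 h from -0.13 to 0.38, Edn1 with U0126 from 1 h from -0.33 to 0.52 and the average Angpt2 effect from -0.022 to 0.34. With the probe set of highest variance Acadl at 12 h of FGF was 1.13, and the U0126 averages of Plat and Spred1 were 0.16 and 0.0059. The cause was not tested in any of these cases.

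Over all 14996 genes, the counts called in order for FGF at 1, 4, 7 and 12 h against quiescent cells were 72, 1336, 1898 and 3048, from 1 to 4, 4 to 7 and 7 to 12 h 777, 18 and 273, and for U0126 at 1, 4, 7 and 12 h 27, 891, 913 and 1808. For FGF with U0126 at 4, 7 and 12 h against quiescent cells they were 1108, 1360 and 813, for U0126 from 1 h and from 7 h 539 and 758, for late against early U0126 at 7 and 12 h 0 and 101, for the test by time 154 and for the later average minus 1 h 252. The settings that moved such a count by over 1.5 times were as follows. The replicate block gave 236, 2658 and 3250 at 1, 4 and 7 h of FGF, 2140, 284 and 708 between times, 158, 1946, 1882 and 3095 for U0126, 2254, 2782 and 2160 for FGF with U0126, 1126 and 1695 for late U0126, 4 and 335 for late against early, 576 by time and 871 for the later average. Without the variance trend the counts were 42 and 852 at 1 and 4 h of FGF, 337, 0 and 138 between times, 578 and 524 for U0126 at 4 and 7 h, 580, 780 and 411 for FGF with U0126, 299 and 376 for late U0126, 21 for late against early at 12 h, 46 by time and 51 for the later average. With the probe set of highest variance they were 817, 1135 and 2012 at 4, 7 and 12 h of FGF, 7 and 170 from 4 to 7 and 7 to 12 h, 538, 595 and 1157 for U0126, 663, 799 and 514 for FGF with U0126, 344 and 464 for late U0126, 68 by time and 158 for the later average. With only the compared groups they were 1097 at 7 h of FGF, 222 and 3 from 1 to 4 and 4 to 7 h, 538 and 573 for U0126 at 4 and 7 h, 638 for FGF with U0126 at 4 h and 65 for late against early at 12 h. With all 27915 probe sets tested, 4678 were called at 12 h of FGF and 5408 in the U0126 average, against 3048 and 3296 genes.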
